A study of Mus musculus with 8 samples.

Results

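The guanylate-binding protein (Gbp) genes were followed in liver tumors of mice given a liposomal Toll-like receptor 7 agonist. The family was taken by gene symbol as Gbp2, Gbp2b, Gbp3, Gbp4, Gbp5, Gbp6, Gbp7, Gbp8, Gbp9 and Gbp10, which are 10 of the 55536 genes in the count table, and all 10 were among the 15998 genes with enough reads to test. RNA-seq had been carried out on 8 whole tumors, 4 in each group, 1 library per tumor. All mice were male C3H mice (C3H/HeNCrNarl in the methods) that carried murine hepatocellular carcinoma cells of the line HCA-1 injected into the liver. Their age was given as 6 to 8 weeks in the sample labels and as 4 to 6 weeks in the methods. On day 17 after implantation, the treated mice (labelled IMQNP, replicates 1, 2, 3 and 4) received 1 intravenous dose of 4 mg/kg PFSUV-IMQ, which is imiquimod (IMQ), a Toll-like receptor 7 agonist, packed in phospholipid-free small unilamellar vesicles. The control mice (labelled Control, replicates 1, 3, 4 and 5) received saline, so that the comparison holds the drug and its vesicle together. Tumors of both groups were taken 3 h later. All tumors grew from 1 cell line and each library also held the host cells of the tumor.

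Guanylate-binding proteins are large GTPases of the dynamin superfamily that interferons induce in many cell types. They assemble on the membranes of intracellular bacteria and of the vacuoles of parasites, open them to the cytosol and thereby feed ligands to the inflammasomes, among them the caspase encoded by mouse Casp4 that binds lipopolysaccharide. Interferon signals reach their genes through STAT and IRF factors, which bind the interferon-stimulated response element (ISRE) and the gamma-activated site (GAS). In the mouse the genes lie in 2 clusters, on chromosome 3 and on chromosome 5.

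The clusters differed in how alike their members are. On GRCm38, as annotated in GENCODE M21, the chromosome 3 members lay on the plus strand in the order Gbp5, Gbp7, Gbp3, Gbp2b and Gbp2, from Gbp5 at chr3:142493978-142522344 to Gbp2 at chr3:142620602-142638008. The chromosome 5 members lay on the minus strand, from Gbp8 at chr5:105014150-105139540 through Gbp9, Gbp4 and Gbp10 to Gbp6 at chr5:105270702-105293698. Coding sequences of the 10 chromosome 5 pairs were 90.2% to 98.4% identical, against 64.3% to 82.5% for the 10 chromosome 3 pairs and 64.0% to 75.8% for the 25 pairs between the clusters. The closest pair was Gbp6 and Gbp10 at 98.4%. Of all 50-base words in its transcripts, Gbp6 shared 90.2% with other genes and Gbp10 82.5%, against 21.2% for Gbp8, at most 12.8% for the other members and 0.234% for Gbp5. Annotated exons of the read-through gene model Gm43302 also covered 46.3% of the exon bases of Gbp10 and 29.0% of those of Gbp6. The counts of Gbp6 and Gbp10 are therefore uncertain, since reads that match both may have been split or left out in counting.

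The ends of the coding sequences show both the likeness of Gbp6 and Gbp10 and a feature that divides the family. The last 30 coding bases before the stop codon (GENCODE M21 transcripts) follow for 6 members, with the fourth codon from the end in capitals. A cysteine codon at this place, TGC or TGT, belongs to the CaaX motif through which a lipid anchor is attached, and it was found in Gbp2, Gbp2b and Gbp5 and not in the other 7 members. The ends of Gbp6 and Gbp10 were identical letter for letter. Gbp9 stands beside them as a chromosome 5 end that differs from theirs, and those of Gbp4 and Gbp8, not shown, differed from it as well.
Gbp2: aacaaatcgtctgggaagTGCactatactc
Gbp2b: atgcctccacctcgatcaTGCaccatactt
Gbp5: cgtagacatcatcatgacTGTgttataagc
Gbp6: cattaccttgtccgttatCTAaagcattta
Gbp10: cattaccttgtccgttatCTAaagcattta
Gbp9: ttaacacacaatccttcaCTTttaaggaaa

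Sequences around the RefSeq transcript start (GRCm38.p6) were matched for the chromosome 3 members Gbp5, Gbp7, Gbp3, Gbp2b and Gbp2. No such sequence was at hand for the chromosome 5 members, so their promoters were not searched and the clusters cannot be compared here. The chromosome 3 sequences were searched on both strands for an ISRE core, AAANNGAAA, and for a GAS, TTCNNNGAA, and matches are set in capitals. An ISRE core was found for all 5 of these genes, and 10.6% of all 32851 promoter windows of the same length held one. A GAS was found for Gbp5 and Gbp7, and 8.30% of all windows held one. The regions of Gbp5, the member with the largest change, and of Gbp7 are shown because they carried both motifs. Counted from the RefSeq start, the GAS of Gbp5 began at -245 and -52 and its ISRE cores at -165 and -159, which overlap each other, while Gbp7 had its GAS at -106 and -87 and its ISRE core at -53.
Gbp5 (chr3:142496684-142496899, plus strand): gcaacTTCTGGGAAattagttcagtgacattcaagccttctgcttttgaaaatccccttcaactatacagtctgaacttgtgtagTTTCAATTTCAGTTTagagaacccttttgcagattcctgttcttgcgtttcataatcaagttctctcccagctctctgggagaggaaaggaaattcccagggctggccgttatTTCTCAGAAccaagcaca
Gbp7 (chr3:142530086-142530335, plus strand): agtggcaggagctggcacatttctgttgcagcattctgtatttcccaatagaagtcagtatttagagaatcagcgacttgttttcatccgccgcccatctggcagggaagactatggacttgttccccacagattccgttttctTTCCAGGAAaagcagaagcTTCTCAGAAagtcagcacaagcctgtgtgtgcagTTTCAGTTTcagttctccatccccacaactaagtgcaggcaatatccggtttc

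For Gbp3, Gbp2b and Gbp2, which carried an ISRE core and no GAS in the window, the stretch around the core nearest to the start is shown. The cores began at -39, -137 and -59. Gbp3 had another core at -45 that overlaps the one shown, and a separate RefSeq window of Gbp3 held neither motif. In GENCODE M21 the 9 bases of the Gbp2 match fell inside the first annotated exon, and those of the other 4 genes fell outside the exons of their gene. The region shown for Gbp5 lies before its RefSeq start but inside the longer span that GENCODE M21 gives the gene, between annotated exons. These matches describe the letters only.
Gbp3 (chr3:142559990-142560028, plus strand): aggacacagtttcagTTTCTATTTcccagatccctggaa
Gbp2b (chr3:142594695-142594733, plus strand): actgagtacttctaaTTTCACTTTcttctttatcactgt
Gbp2 (chr3:142620589-142620627, plus strand): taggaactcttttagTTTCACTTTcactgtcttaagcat

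The libraries held 16883911 to 27687756 counted reads, and levels are given as CPM, which are read counts put on one scale of library size by trimmed-mean (TMM) normalization. A count of 3 reads, the limit under which a gene was taken as not detected, corresponds to 0.108 to 0.178 CPM in these libraries and covers counting error only. The lowest count of any member in any tumor was 31. The summed level of 6 hepatocyte and carcinoma markers ran from 4046 to 29478 CPM in saline tumors and from 5726 to 30101 CPM in treated tumors. Alb alone reached up to 22736 CPM, whereas the oncofetal genes Afp and Gpc3 stayed at or below 6.08 and 1.99 CPM. The sum cannot tell tumor cells from host hepatocytes, so it does not settle tumor identity. PFSUV-IMQ replicate 2 had the highest levels of all tumors for every member, by up to 3.25-fold over the next tumor, so results are also given without it.

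PFSUV-IMQ raised most of the family within 3 h. A gene was called when the quasi-likelihood test of edgeR gave a p below 0.05 after adjustment over the whole table (Benjamini-Hochberg) and the change exceeded 1 on the log2 scale. On this rule 8 of the 10 members were called higher and 0 were called lower, while 2.26% of all tested genes were called higher. Every treated tumor lay above every saline tumor for 9 of the 10 members, against 6.00% of all tested genes. The median log2 fold change was 2.33 over the members and -0.03 over all tested genes. Gbp6 missed the threshold, at an adjusted p of 0.0516, and Gbp8 neither passed the test nor separated the groups. The count of members called higher changed when 1 tumor was left out. It was 1 without saline replicate 1, when Gbp5 alone was called, and 5, 4 and 5 without saline replicates 3, 4 and 5. Without PFSUV-IMQ replicates 1, 2, 3 and 4 it was 9, 7, 7 and 4. The fold changes moved less. Without saline replicate 1 the median log2 fold change stayed at 2.15 over the chromosome 3 members. Over the chromosome 5 members it went from 2.46 to 2.39. The genes called higher over the whole table fell from 362 to 197 in that fit. The p-values set the difference between the groups against the spread between these tumors. A bulk library cannot tell more cells of an expressing type from more RNA per cell.

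**Figure D1:**
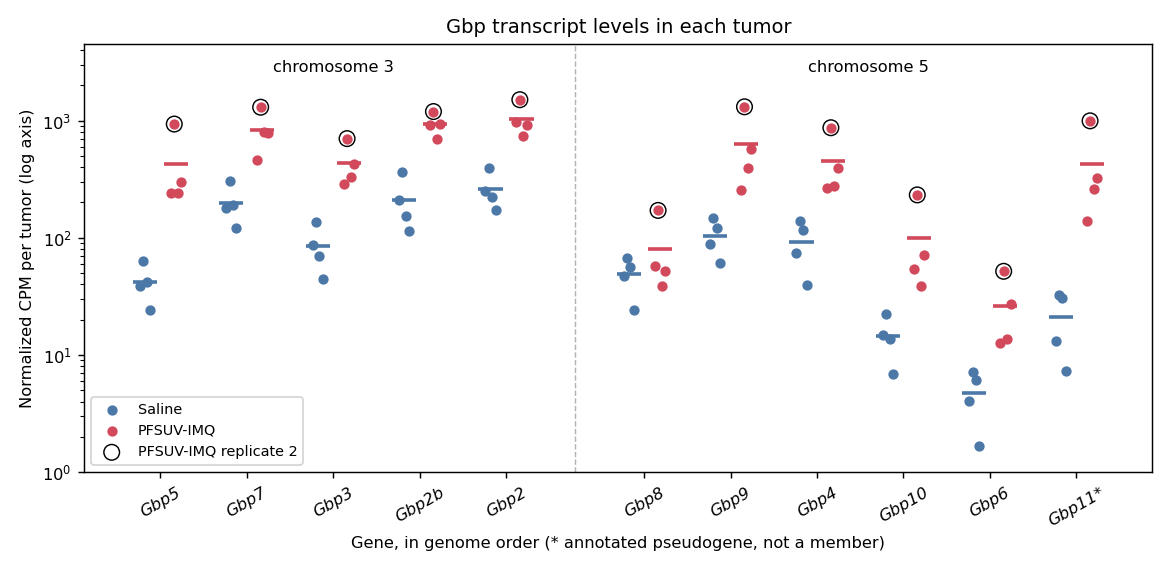
Normalized CPM (log axis) of each Gbp gene in the 4 saline (blue) and 4 PFSUV-IMQ (red) tumors, with the group mean as a bar and PFSUV-IMQ replicate 2 ringed. The red points lie above all blue points for every gene except Gbp8, and the ringed tumor is the highest for every gene.

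The chromosome 3 members were taken first, beginning with those that carry the CaaX cysteine. Gbp2 was the most abundant member, with 250.0, 394, 221 and 173 CPM in saline replicates 1, 3, 4 and 5. In PFSUV-IMQ replicates 1, 2, 3 and 4 it reached 979.7, 1506, 742 and 909 CPM. The groups did not overlap, and the mean went from 259.6 ± 95.4 to 1034 ± 329.6 CPM (SD, n = 4), a log2 fold change of 1.99 (SE 0.32) with an edgeR adjusted p of 0.0107. Gbp2b, the closest relative of Gbp2 at 82.5% coding identity, had 211, 362, 154 and 115 CPM in the saline tumors. It had 924, 1193, 691 and 929 CPM in the treated tumors, the narrowest spread among the members in that group, with a ratio of highest to lowest of 1.73. Its log2 fold change was 2.15 (SE 0.36), with an edgeR adjusted p of 0.0135.

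Gbp5, which is known to promote assembly of the NLRP3 inflammasome, showed the largest change in the family. It had 39.0, 63.0, 42.0 and 24.3 CPM in the saline tumors and 240.5, 933, 240.0 and 298 CPM in the treated tumors. The lowest treated tumor stood 3.81-fold above the highest saline tumor, the widest gap among the members. The mean went from 42.1 ± 15.9 to 428 ± 338 CPM (SD, n = 4), which is 10.2-fold, or 6.17-fold without PFSUV-IMQ replicate 2. The log2 fold change was 3.35 (SE 0.52), the 65th highest of the 15998 tested genes, with an edgeR adjusted p of 0.00963. Gbp5 was also the only member called in all 8 fits that left out 1 tumor.

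Gbp7 and Gbp3, which lack the CaaX cysteine and share 78.5% of their aligned coding bases, rose as well. Gbp7, a member known to act on parasite vacuoles and in oxidative defense, had 179, 307, 191 and 121 CPM in saline tumors and 456, 1299, 794 and 786 CPM in treated tumors. Its log2 fold change was 2.06 (SE 0.37), with an edgeR adjusted p of 0.0196, and the call was lost in 3 of the 8 leave-one-out fits. Gbp3 lay between 44.7 and 136 CPM in the saline tumors, lowest in replicate 5 and highest in replicate 3, and had 286, 701, 332 and 427 CPM in treated tumors. The log2 fold change of Gbp3 was 2.37 (SE 0.39), with an edgeR adjusted p of 0.0127. All 5 chromosome 3 members were thus called higher, and all 5 kept this call without PFSUV-IMQ replicate 2. A pseudogene of the processed type, Gm43802, overlies 11.3% of the Gbp7 exon bases, and it had 0 counts in all tumors.

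Of the chromosome 5 members, Gbp9, Gbp4 and Gbp10 were called higher. Gbp9 had 88.4, 147, 121 and 60.5 CPM in the saline tumors and 255, 1309.8, 395 and 567 CPM in the treated tumors. Its mean rose 6.06-fold, or 3.89-fold without PFSUV-IMQ replicate 2, and its log2 fold change was 2.60 (SE 0.51), with an edgeR adjusted p of 0.0286. Gbp4 had 73.9, 139, 116 and 39.2 CPM in saline tumors and 264, 868, 279 and 397 CPM in treated tumors. It changed by 2.30 on the log2 scale (SE 0.49), with an edgeR adjusted p of 0.0416 that became 0.0591 without PFSUV-IMQ replicate 2. The call of Gbp4 was lost in 7 of the 8 leave-one-out fits, and those of Gbp9 and Gbp10 in 5 each.

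The near-identical pair Gbp10 and Gbp6 was expressed at lower levels. Gbp10 had 14.9, 22.3, 13.7 and 6.84 CPM in saline tumors and 54.0, 232, 38.4 and 71.5 CPM in treated tumors. Its log2 fold change was 2.77 (SE 0.59), with an edgeR adjusted p of 0.0419, and its mean was 6.85-fold higher with all tumors and 3.78-fold higher without PFSUV-IMQ replicate 2. Gbp6 was the lowest member, with 4.06, 7.17, 6.06 and 1.68 CPM in saline tumors and 12.7, 51.7, 13.7 and 27.0 CPM in treated tumors. The groups of Gbp6 did not overlap, at a log2 fold change of 2.46 (SE 0.55), and it was called under 6 of 16 alternative settings. Since these genes share most of their sequence, their separate values say less than those of the other members, and without them 7 of the 8 remaining members were called higher.

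Gbp8 was the exception in the family. It had 46.9, 67.2, 56.8 and 24.3 CPM in the saline tumors and 57.3, 171, 38.5 and 51.6 CPM in the treated tumors. Apart from PFSUV-IMQ replicate 2, the treated tumors fell within the saline range. The log2 fold change was 0.70 (SE 0.48), the 1460th highest of 15998, with an edgeR adjusted p of 0.636. Without PFSUV-IMQ replicate 2 it was -0.01 (SE 0.32). Gbp8 lies at the end of the cluster, and its annotated span overlaps those of Gbp9 and Gbp4, but only 1.77% of its exon bases were shared with them.

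**Figure D2:**
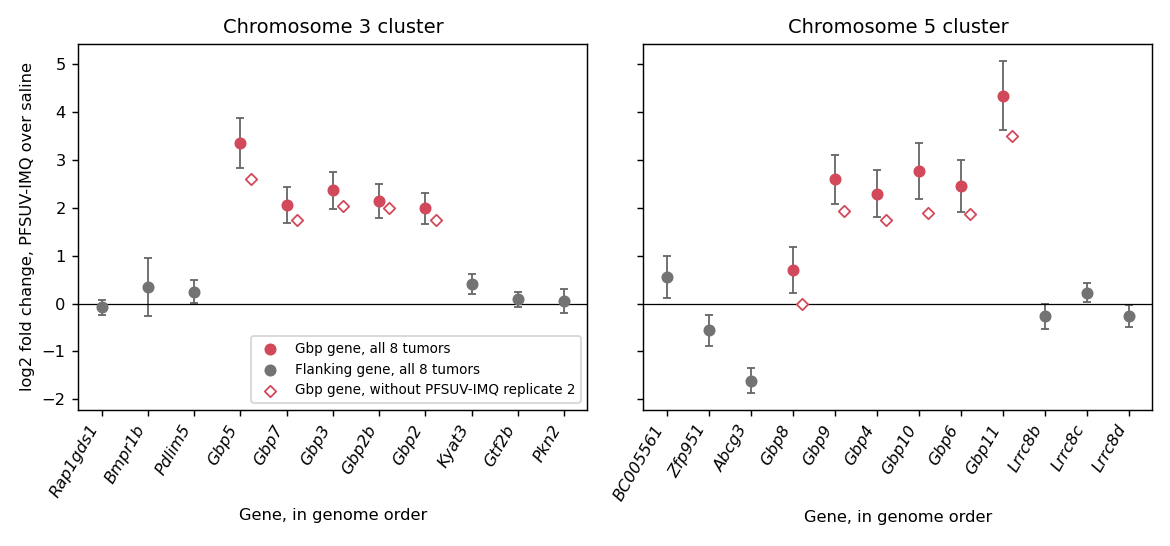
log2 fold change (PFSUV-IMQ over saline, edgeR, bars are the standard error) of the Gbp genes (red) and of the 3 nearest tested protein-coding genes on each side (grey), in genome order; open diamonds leave out PFSUV-IMQ replicate 2. The Gbp genes lie between 0.70 and 4.35, with Gbp8 the lowest and the non-member Gbp11 the highest, and Abcg3 beside Gbp8 is at -1.61.

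Other genes with a Gbp symbol were looked at beside the members. Gbp11, at the far end of the chromosome 5 cluster (chr5:105323042-105346472) and annotated as a polymorphic pseudogene, had a larger log2 fold change than any member. It had 13.2, 32.6, 30.7 and 7.28 CPM in saline tumors and 138, 994, 259 and 323 CPM in treated tumors. Its log2 fold change was 4.35 (SE 0.73), with an edgeR adjusted p of 0.0132, and 3.50 (SE 0.52) without PFSUV-IMQ replicate 2. It shared 34.5% of its 50-base words with other genes, among them Gbp6, Gbp8, Gbp4 and Gbp9. The gene identifiers match an annotation built on the C57BL/6J genome, whereas the mice were C3H. The part of this in the Gbp11 counts was not tested. Gbp2-ps, a pseudogene in the chromosome 3 cluster, had at most 1 count per tumor. The model Gm43302, which spans Gbp10 and Gbp6, had 3 to 8 counts in saline tumors and 13 to 37 in treated tumors. Its log2 fold change was 2.67 (SE 0.53) with an edgeR adjusted p of 0.0288, and the call was lost in 6 of the 8 leave-one-out fits.

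None of the 12 nearest neighbors outside the clusters was called higher. Over all tested genes 2.26% were called higher, so 0 calls among 12 genes say little. These neighbors lay 31432 to 3418777 bases from the nearest gene with a Gbp symbol. The model Gm43302, called higher, lies inside the chromosome 5 cluster and is not among them. On chromosome 3, the 3 nearest tested protein-coding genes on each side (Rap1gds1, Bmpr1b, Pdlim5, Kyat3, Gtf2b and Pkn2) had log2 fold changes of -0.08 to 0.41, and none was called. On chromosome 5, BC005561, Zfp951, Lrrc8b, Lrrc8c and Lrrc8d were not called, at -0.56 to 0.55. Abcg3, a gene of the ATP-binding cassette family that ends 31432 bases from Gbp8, was called lower, in a comparison in which 0.200% of tested genes were called lower. It had 9.22, 9.17, 14.6 and 9.29 CPM in saline tumors and 4.75, 2.86, 3.18 and 3.03 CPM in treated tumors, with no overlap. The log2 fold change of Abcg3 was -1.61 (SE 0.26), with an edgeR adjusted p of 0.0119, and it was called lower in all 8 fits without 1 tumor.

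The clusters were then compared as a whole. For this, levels were divided by the length of each gene's merged exons, to give CPM per kilobase. The summed level of the 5 chromosome 3 members was 239, 391, 204 and 148 CPM per kilobase in saline tumors and 922, 1608, 819 and 1006 in treated tumors, and the ranges were apart. That of the 5 chromosome 5 members was 45.1, 73.5, 59.9 and 26.0 CPM per kilobase in saline tumors and 117, 487, 137 and 201 in treated tumors, also apart. The means rose 4.43-fold on chromosome 3 and 4.61-fold on chromosome 5, or 3.73-fold and 2.97-fold without PFSUV-IMQ replicate 2. The chromosome 5 value depended on the genes taken. Without Gbp8 it was 5.75-fold, or 3.72-fold without that tumor. With the non-member Gbp11 added to the 5 members it was 6.70-fold, or 4.09-fold without that tumor. The share of the family's summed level that came from chromosome 5 was 14.9% to 22.7% in saline tumors and 11.3% to 23.3% in treated tumors, so the groups overlapped. The median log2 fold change was 2.15 (1.99 to 3.35) over the chromosome 3 members and 2.46 (0.70 to 2.77) over the chromosome 5 members, and 1.99 and 1.88 without PFSUV-IMQ replicate 2. The order of these medians thus changed when that tumor was left out.

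Within the pool of Gbp transcripts, the 5 leading genes were the same in both groups. Per kilobase, Gbp2 (103 ± 37.9), Gbp2b (74.6 ± 38.4), Gbp7 (35.6 ± 13.9), Gbp3 (25.8 ± 11.8) and Gbp9 (20.1 ± 7.29) led in saline tumors (CPM per kilobase, SD, n = 4). In treated tumors the same genes led at 411 ± 131, 331 ± 72.7, 149 ± 61.9, 134 ± 56.9 and 122 ± 90.8. Below them, saline tumors had Gbp8 at 14.2, Gbp4 at 12.3, Gbp5 at 6.34, Gbp10 at 3.73 and Gbp6 at 0.796 CPM per kilobase. In treated tumors Gbp5 had the sixth place at 64.5, before Gbp4 at 60.3, Gbp10 at 25.5, Gbp8 at 23.1 and Gbp6 at 4.41. Most neighbors in these orders had overlapping ranges, and Gbp10 stood above Gbp8 in only 2 of the 4 treated tumors. With the length of 1 principal transcript per gene in place of merged exons, Gbp4 stood before Gbp8 in saline tumors, and Gbp3 before Gbp7 and Gbp8 before Gbp10 in treated tumors, so these places depend on the length used. Ranges were apart only between Gbp10 and Gbp6 in saline tumors, and between Gbp2b and Gbp7 and between Gbp8 and Gbp6 in treated tumors.

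**Figure D3:**
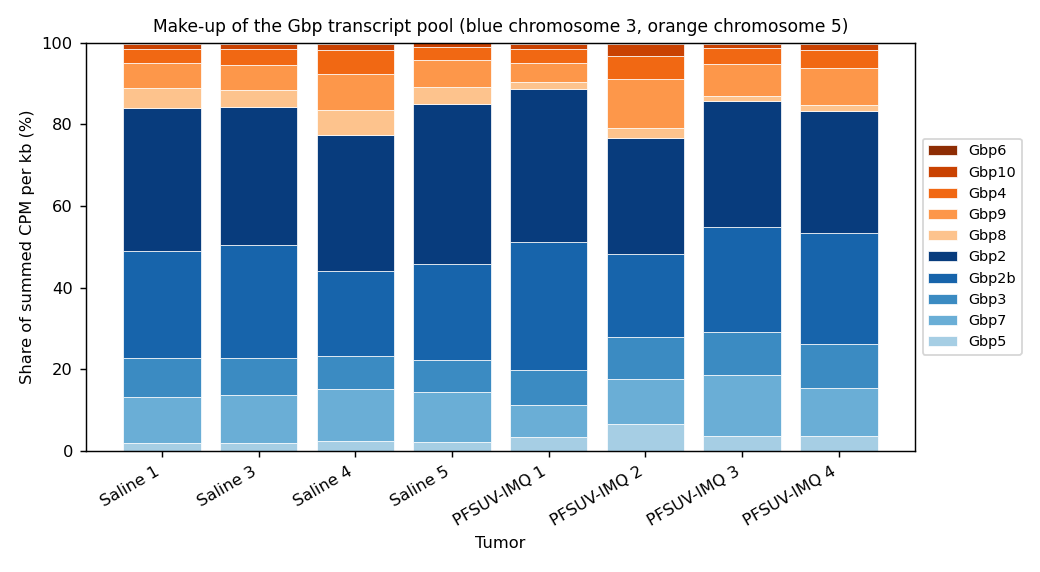
Share (%) of each member in the summed CPM per kilobase of the 10 Gbp genes in each tumor, chromosome 3 members in blue and chromosome 5 members in orange. Gbp2 and Gbp2b take the largest shares in every tumor, and the Gbp8 band is thinner in the 4 treated tumors (1.17% to 2.37%) than in the 4 saline tumors (4.05% to 6.24%).

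The shares of 2 of the 10 members did not overlap between the groups. Gbp8 supplied 4.05% to 6.24% of the summed CPM per kilobase in saline tumors and 1.17% to 2.37% in treated tumors. Gbp5 supplied 2.04% to 2.39% in saline tumors and 3.49% to 6.71% in treated tumors. Gbp2 held 33.3% to 39.4% and 28.6% to 37.5%, with overlap. To test whether members changed by unequal amounts, the log2 ratio of counts of each of the 45 pairs of members was compared between the groups, since such a ratio within a tumor does not depend on library size. In 15 pairs the groups were apart, which gives an exact two-sided permutation p of 0.0286, the smallest that 4 against 4 tumors allow. The smallest Benjamini-Hochberg adjusted p over the 45 pairs was 0.0857, so that 0 pairs passed a threshold of 0.05 after adjustment.

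All 9 pairs with Gbp8 were among these 15 pairs. The log2 ratio of Gbp5 to Gbp8 was -0.26, -0.09, -0.44 and 0.00 in saline tumors and 2.07, 2.45, 2.64 and 2.53 in treated tumors. The difference of 2.62 was the largest of all pairs and lay between 2.54 and 2.74 when any 1 tumor was left out. The log2 ratio of Gbp10 to Gbp8, both on chromosome 5, moved by 1.98 and that of Gbp2 to Gbp8 by 1.47. The other 6 pairs all held Gbp5, set against Gbp2, Gbp7, Gbp3, Gbp9, Gbp4 and Gbp10, with differences of 0.64 to 1.15 in size and in favor of Gbp5 in each. Groups were apart in 7 of the 20 pairs within a chromosome and in 8 of the 25 pairs between the chromosomes.

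The tumors with the extreme levels were shared across the family. PFSUV-IMQ replicate 2 was the highest of all tumors for 10 of 10 members, and its lead over the next tumor ran from 1.28-fold for Gbp2b to 3.25-fold for Gbp10. Among saline tumors, replicate 3 was the highest and replicate 5 the lowest for 10 of 10 members, with ratios between them of 2.29 for Gbp2 to 4.26 for Gbp6. The tumors between these extremes had no common order, and the lowest treated tumor was replicate 1 for 5 members and replicate 3 for the other 5. Saline replicates 3 and 5 also had the highest and the lowest total counts, 27687756 and 16883911, whereas PFSUV-IMQ replicate 2 had the lowest total of its group, 17008151. The part of depth in these differences was not tested.

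**Figure D4:**
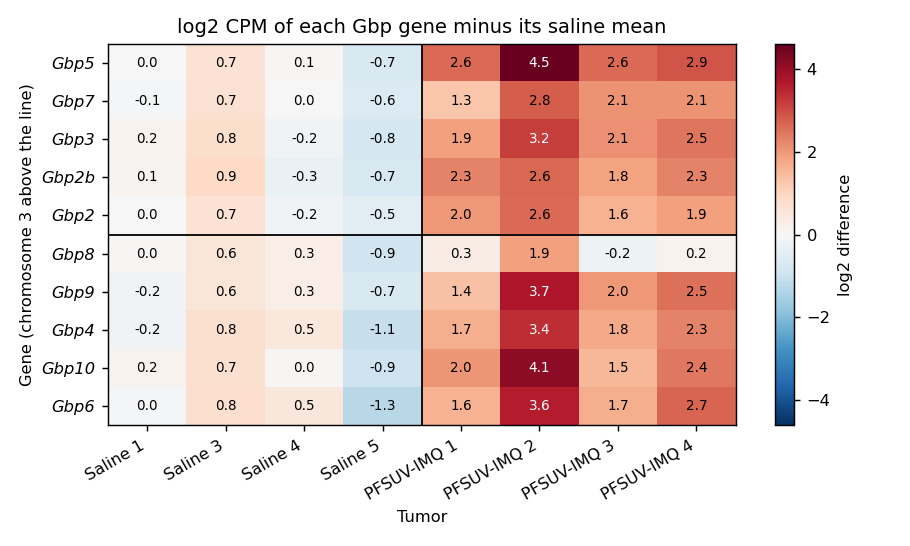
log2 CPM of each member (rows) in each tumor (columns) minus its mean over the 4 saline tumors; the horizontal line divides chromosome 3 from chromosome 5 members. All members are highest in PFSUV-IMQ replicate 2, and among saline tumors highest in replicate 3 and lowest in replicate 5, while the Gbp8 row stays near 0 in PFSUV-IMQ replicates 1, 3 and 4.

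Markers of the cell types that the tumors could hold were summed in each library. The ranges of the groups overlapped for 8 of 9 lists, none of whose markers was called. The 5 T cell markers summed to 47.1 to 111 CPM in saline tumors and 52.7 to 133 CPM in treated tumors, and the 4 NK cell markers to 10.6 to 56.2 and 27.4 to 84.5 CPM. Both lists were lowest in saline replicate 5 and highest among saline tumors in replicate 3, and PFSUV-IMQ replicate 2 was the highest of all. That tumor was also the highest of its group for the hepatocyte, macrophage, neutrophil, plasmacytoid dendritic cell and B cell lists, though not for the endothelial and fibroblast lists. The NK cell sum came mostly from Prf1, at 6.35 to 49.3 CPM in saline and 23.3 to 65.1 CPM in treated tumors, whereas Ncr1 had 0.415 to 1.98 and 0.110 to 0.768 CPM and was not called. Macrophage markers summed to 895 to 1268 and 624 to 1239 CPM, neutrophil markers to 14.9 to 57.2 and 29.5 to 136 CPM, B cell markers to 1.29 to 5.97 and 2.23 to 18.4 CPM, endothelial markers to 79.7 to 123 and 66.9 to 104 CPM, and fibroblast markers to 1694 to 2398 and 1991 to 5817 CPM. The 4 plasmacytoid dendritic cell markers were apart, at 198 to 297 and 445 to 717 CPM, and of these Bst2, itself an interferon-induced gene, was called higher. The other 3, Siglech, Tcf4 and Ccr9, summed to 122 to 195 and 166 to 262 CPM, nearly all of it from Tcf4 at 118 to 190.2 and 164 to 255 CPM, while Siglech had 2.30 to 4.57 and 0.938 to 3.14 CPM and was not called. No marker of any list was at 0 in all 8 tumors. The neutrophil marker Retnlg, named after its values were seen, had 0.0430 to 1.57 CPM in saline and 1.87 to 11.0 CPM in treated tumors. Its groups did not overlap, its lowest saline level was below the detection limit, and it was not called. The groups overlapped for the other neutrophil markers, S100a8, S100a9 and Csf3r. The part of cell composition in the Gbp levels was not tested.

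Genes of the pathways around the family were read from lists of receptors, factors and partners. Over all tested genes, 2.26% were called higher and 0.200% lower, for comparison with the lists that follow. Of the 13 tested genes of interferon signaling, 4 were called higher and 0 lower, with a median log2 fold change of 0.62. Among those called were Socs1, a feedback inhibitor, at 2.74 (SE 0.46), the transcription factor Stat2 at 2.34 (SE 0.19) and Irf9, its DNA-binding partner, at 1.26 (SE 0.19), which was named after its value was seen. Stat2 had 97.2, 119, 101 and 91.0 CPM in saline tumors and 429.6, 626, 506 and 504 CPM in treated tumors, a narrower spread than that of any member in either group. Ifng, the interferon best known for Gbp induction, was picked after its values were seen. It had 2.35, 3.34, 2.41 and 0.923 CPM in saline tumors and 2.54, 5.66, 2.73 and 3.09 CPM in treated tumors, which overlap, and it was not called. Its highest and lowest tumors within each group were replicates 3 and 5 of the saline tumors and replicates 2 and 1 of the treated tumors.

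The immunity-related GTPases (IRG), which act beside the Gbp proteins on vacuoles, gave 11 called higher and 0 lower of 14 tested, with a median of 1.93. The 3 with the largest changes were Gm12250 at 3.24 (SE 0.40), Gm5431 at 3.01 (SE 0.49) and Ifi47 at 2.48 (SE 0.33). Of 12 inflammasome genes, Casp4 was the 1 called higher, with a mean 2.82-fold above saline and an edgeR adjusted p of 0.00413. The list had 0 called lower and a median of 0.59. At an unadjusted edgeR p under 0.05, 6 of the 12 were higher and 0 lower. The share of all tested genes at this limit is not given here, so this count has no background to be read against. In 4 of the 12 every treated tumor lay above every saline tumor, against 6.00% of all tested genes. Casp4 had 36.1, 38.4, 26.8 and 38.4 CPM in saline tumors and 91.6, 132, 82.8 and 88.4 CPM in treated tumors. Mefv at 1.34 (SE 0.42) and Pycard at 1.18 (SE 0.48) were the next in size and were not called.

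The machinery that places and anchors Gbp proteins gave no calls. With 2.26% of all tested genes called higher and 0.200% called lower, 0 calls in lists this short say little. Of the 11 genes of ATG8 conjugation, which direct Gbp proteins to vacuoles, 0 were called by edgeR, 0 had an unadjusted p under 0.05 and 0 were called by DESeq2, with a median log2 fold change of -0.08. The largest in size were Gabarapl1 at -0.41 (SE 0.22), Atg5 at -0.28 (SE 0.22) and Atg16l1 at 0.24 (SE 0.15). Of the 6 prenylation genes, whose enzymes attach and process the CaaX lipid anchor, 0 were called by edgeR, 0 had an unadjusted p under 0.05 and 0 were called by DESeq2. Their median was -0.02, with Fnta at -0.27 (SE 0.13), Fntb at -0.27 (SE 0.19) and Zmpste24 at 0.10 (SE 0.19) the largest in size. Fnta lay at 60.1 to 66.4 CPM in saline tumors and 45.0 to 56.9 CPM in treated tumors, without overlap, at an unadjusted edgeR p of 0.0764.

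**Figure D5:**
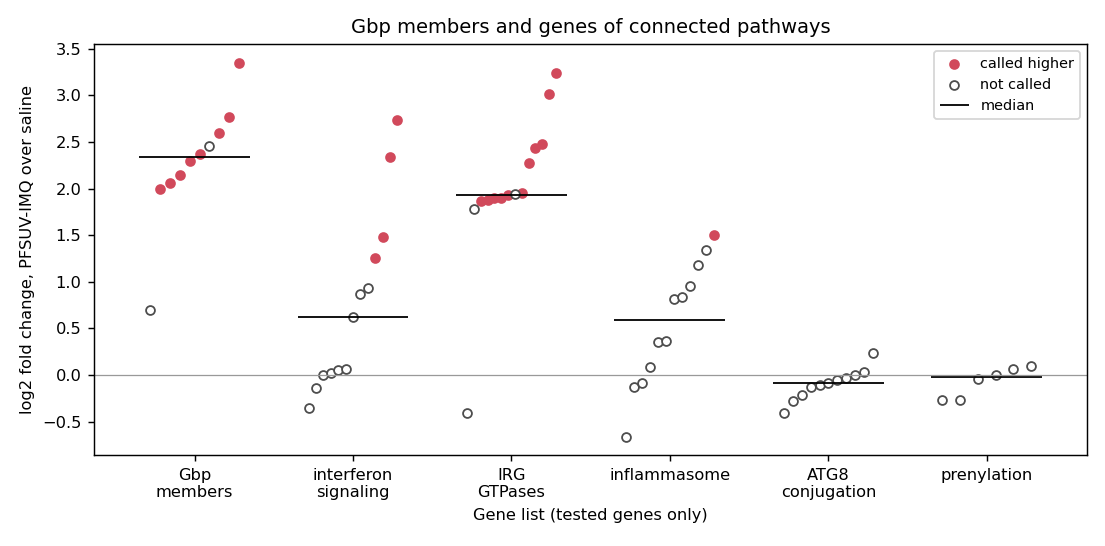
log2 fold change (PFSUV-IMQ over saline) of the 10 Gbp members and of the tested genes of 5 connected pathways; filled points were called higher by edgeR, open points were not called, and the bar is the median of each list. The Gbp and IRG lists have medians of 2.33 and 1.93, and the ATG8 conjugation and prenylation lists lie around 0 with no gene called.

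Last, genes outside the family were ranked by how closely their log2 profile over the 8 tumors, centered on the saline mean, followed the mean profile of the members. The 5 closest were Gm2666, Gm4951 and AA467197, each with a root mean square difference of 0.25, and the apolipoprotein L genes Apol10b and Apol6, each with 0.26. Gm2666 had a saline mean of only 0.175 CPM, within the 0.108 to 0.178 CPM of the detection limit. Its profile therefore rests on very few saline reads, and it was not called, at an edgeR adjusted p of 0.0567. Apol6 went from 5.10 ± 2.24 to 27.3 ± 16.8 CPM (SD, n = 4). Among the members themselves, Gbp4 lay closest to the mean profile at 0.18, and Gbp5 at 0.70 and Gbp8 at 1.20 lay farthest from it.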

How the data were processed

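Whole HCA-1 tumors were sequenced as 8 mRNA libraries, 4 per group. The authors deposited raw read counts per gene for 55536 genes. The authors also deposited a signal table of counts divided by a DESeq2 size factor per sample, which was checked against the counts (largest relative departure 4.9e-10) and gave the gene symbols, of which 25 had been turned into dates. The submitters' processing notes list Trimmomatic 0.38, HISAT2 2.1.0 and featureCounts 2.0.0, whereas the study's methods name TopHat and HTSeq. These tools treat reads that match several genes or overlapping exons differently, and which made the counts could not be settled, nor whether strand was used. The genome build is not given in the sources used here. All 55536 identifiers are in GENCODE M21 (GRCm38), which supplied coordinates and exons.

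Counts were normalized by TMM, filtered with filterByExpr (15998 genes kept) and tested with edgeR 4.0.16 (glmQLFit and glmQLFTest, group as the only term, tumors of both groups in 1 fit) in R 4.3.3. Calls needed a Benjamini-Hochberg value below 0.05 over all tested genes together with a change of more than 1 on the log2 scale. Log2 ratios of 2 members used counts plus 0.5 and an exact two-sided permutation test. DESeq2 1.42.0 and other settings served as alternatives. The members, lists and tests were chosen with earlier results of these data known. Genes were named by rule: all members, other Gbp symbols, the 3 nearest tested protein-coding genes per side, the 3 largest changes of each list, and the 5 most alike profiles. One result of the interferon signaling list is not reported here.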

Additional observations from a re-analysis of the deposited data

Results flagged for a closer look

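In 3 of the 26 groups of 4 tumors examined, which are those of the 10 members, of Gbp11 and of the summed level of each cluster, 1 tumor stood apart from the others by Dixon's ratio at its 95% limit, and chance alone marks about 1 in 20 groups. All 3 were PFSUV-IMQ replicate 2. Gbp5 had 933 CPM there against 240.0 to 298 in the other treated tumors, Gbp8 had 171 against 38.5 to 57.3, and Gbp10 had 232 against 38.4 to 71.5.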

How the results depend on the processing

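Across 16 alternative settings, 9 of the 10 members kept a positive log2 fold change, from 1.54 (Gbp4) to 3.60 (Gbp5) at the extremes. Gbp8 reached at most 0.94 (without PFSUV-IMQ replicate 3) and turned to -0.22 with the replicate number as a block and to -0.01 without PFSUV-IMQ replicate 2. With the replicate block the median was 1.87 for the chromosome 3 and 1.58 for the chromosome 5 members, the opposite order to that without the block. In the block fit, saline replicate 5 and PFSUV-IMQ replicate 2 have no same-numbered partner, so neither tumor enters the estimated group difference. Its Gbp8 value and its cluster order are therefore not separate from those without PFSUV-IMQ replicate 2. The count of members called higher was 9 with DESeq2 size factors, upper-quartile normalization, no filter, the DESeq2 Wald test or the replicate block, 8 with at least 10 counts in every tumor or the size factors of the authors' table (chosen after seeing the data), and 1 to 9 with 1 tumor left out. Upper-quartile normalization moved the median of all genes to -0.102. Over the whole table, 362 genes were called higher and 32 lower. These became 618 and 133 by the DESeq2 Wald test, which also called 2 inflammasome genes. Without a filter 63 genes were called lower, and with the replicate block 267. With 1 tumor left out, 197 to 375 genes were called higher, 8 to 38 lower, 2 to 4 of the interferon signaling list and 4 to 10 of the IRG list. The interferon count was 2 and the IRG count 4 without saline replicate 1, and the IRG count was 6 without saline replicate 4 or PFSUV-IMQ replicate 4 and 7 without PFSUV-IMQ replicate 2. The cause of these changes was not tested, beyond the smaller number of tumors. By counts in place of counts per kilobase, chromosome 5 supplied 24.9% of the family in saline and 24.1% in treated tumors. Deviations of same-numbered tumors correlated at 0.294, -0.268 and -0.316 across genes, so the numbers were not taken as pairs. The lowest counts behind a member were those of Gbp6, 31 to 204 in saline tumors.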
